A study of Mus musculus with 10 samples.

Results

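The colony stimulating factor and KIT axis was taken as 8 genes matched by symbol in the deposited table, 3 that encode ligands (*Csf1*, *Kitl* and *Flt3l*) and 5 that encode receptors or receptor subunits (*Csf1r*, *Kit*, *Flt3*, *Csf2ra* and *Csf2rb*), out of 25233 entries with a symbol. In 5 hypHSC libraries against 5 qHSC libraries, 3 of the 5 receptor genes rose and 2 of the 3 ligand genes fell, where 17.8% of all genes tested rose and 21.7% fell. *Csf1r*, *Csf2ra* and *Csf2rb* were higher in hypHSCs by 3.78, 2.70 and 4.42 on the log2 scale, and *Csf1* and *Flt3l* were lower, with log2 fold changes of -3.54 and -1.68. *Kitl* and *Kit* did not pass the test, and *Flt3* had too few counts to enter it.

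Hepatic stellate cells are the vitamin A-storing mesenchymal cells of the liver. The hypHSCs were hypertrophied stellate cells sorted on green fluorescence from male C57BL/6J mice fed the CDAHFD, a choline-deficient, low-methionine, high-fat diet used to induce steatohepatitis and fibrosis. For hypHSC 1 and 2 the mice were 19 weeks old and had been on the diet for 13 weeks, and for hypHSC 3, 4 and 5 they were 18 weeks old and had been on it for 12 weeks. The qHSCs were quiescent stellate cells sorted on blue fluorescence from male C57BL/6J mice on the standard diet, of which qHSC 1, 2 and 5 came from mice aged 36 weeks and qHSC 3 and 4 from mice aged 34 weeks. Diet, age, digestion of the liver and sorting gate differed together between the groups and cannot be told apart. The mouse behind each preparation is not given in the sources used here, so n counts preparations. The p-values judge the group difference against the spread between preparations. The paper chose the hypHSC preparations for high RNA integrity from a set with more samples than mice, so preparations may share a mouse. It reports no difference in mean RNA integrity between the selected hypHSC and qHSC preparations.

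These ligands and receptors are best known from blood and immune cells. CSF1, and IL34 as a second ligand, bind the receptor tyrosine kinase CSF1R, on which macrophages and Kupffer cells depend. KITL binds KIT, a receptor of mast cells and blood progenitors, and FLT3L binds FLT3, a receptor of progenitors and dendritic cells. CSF2RA and CSF2RB are the ligand-binding and the shared signalling subunit of the receptor for CSF2, also called GM-CSF, and CSF2RB also serves the receptors for IL3 and IL5.

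Values are normalized counts, that is, reads per gene divided by a size factor for each library. Each hypHSC library had 30534719 to 43283589 reads on named genes and each qHSC library 35640104 to 47317028, and 3 reads, taken as the floor of detection, corresponded to 2.25 to 4.54 normalized counts. The labelled cell type was checked against its markers. All 12 stellate cell markers tested were lower in hypHSCs (median log2 fold change -5.28), with a summed level of 24929 to 56335 against 884299 to 1256620 normalized counts. Of 8 myofibroblast markers (median 0.56), *Lox* and *Timp1* were higher and *Tagln* and *Postn* lower. *Acta2*, *Col1a1*, *Col1a2* and *Col3a1* were not called. The myofibroblast list summed to 15814.5 to 58283.7 normalized counts in hypHSCs against 33130.4 to 62197.4 in qHSCs. All 14 macrophage markers were higher (median 4.61), with a summed level of 1119870 to 1624260 in hypHSCs against 7138 to 128631 in qHSCs. All 4 cholangiocyte markers tested were also higher, and their list summed to 161343 to 336684 normalized counts in hypHSCs against 30.8 to 387 in qHSCs. Most of that sum was *Spp1*, at 160907 to 335921 in hypHSCs, where *Krt19*, *Epcam* and *Sox9* averaged 230, 159 and 500. None of 8 hepatocyte markers was higher (1 was lower). Of 8 neutrophil markers, 5 had too few counts to be tested, and the 3 tested were higher (median 8.33). The 8 had a summed level of 1454 to 5827 against 5.43 to 112 normalized counts. Of 6 resident Kupffer cell markers 3 were higher, and their sum was 18347 to 34538 in hypHSCs and 1270 to 44861 in qHSCs, highest of all libraries in qHSC 4. The part of these cells in the results was not tested. In these bulk libraries, fewer cells of a type and less RNA per cell cannot be told apart.

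**Figure D1:**
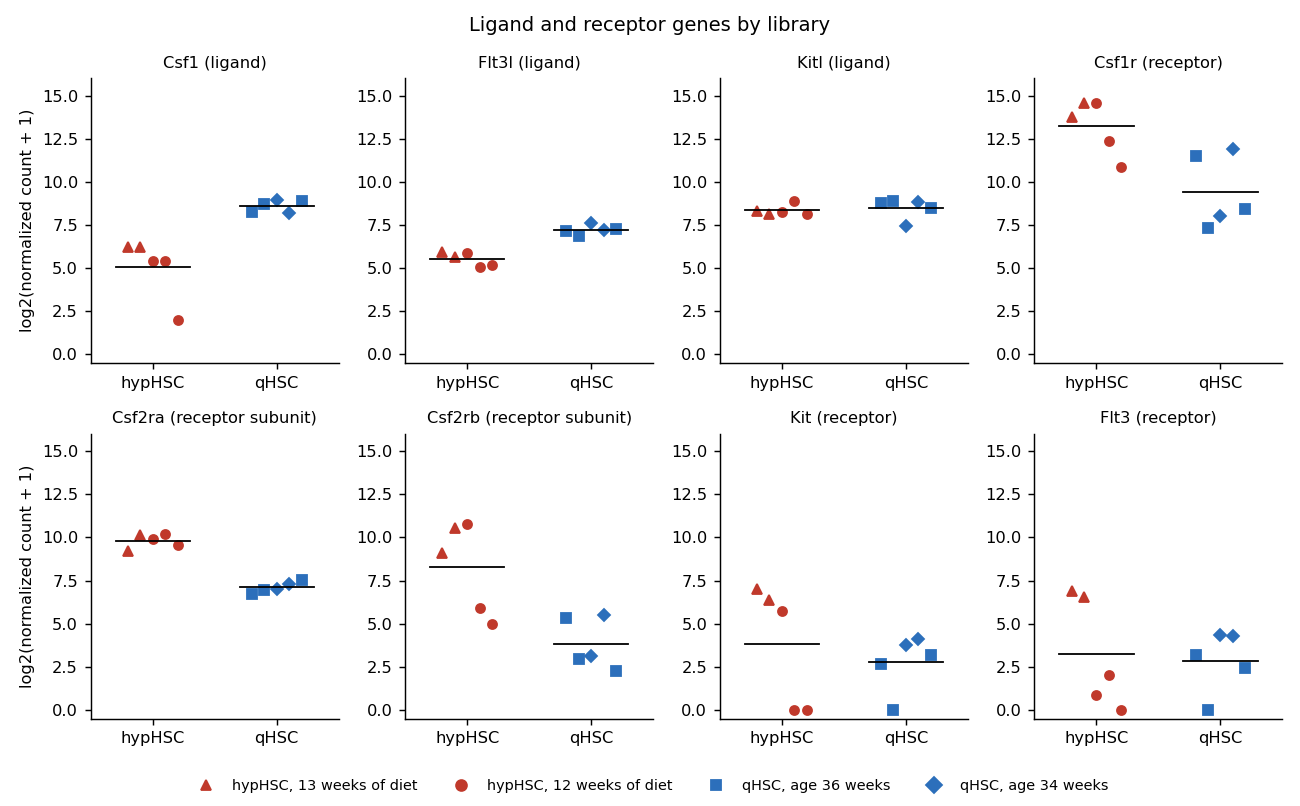
Log2(normalized count + 1) of the 8 genes in each of the 10 libraries, with hypHSCs in red and qHSCs in blue, marker shapes for weeks of diet or age, and a line at the mean of the 5 libraries. The groups are apart for *Csf1*, *Flt3l* and *Csf2ra* and overlap for the other 5 genes.

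The ligand genes are described first. *Csf1* (chromosome 3, 107648365 to 107667786, GRCm39), the gene of macrophage colony stimulating factor, had 74.1, 74.5, 41.6, 42.0 and 3.02 normalized counts in hypHSC 1 to 5 and 304, 423, 487, 294 and 483 in qHSC 1 to 5. Every hypHSC library was below every qHSC library, and hypHSC 5, with 2 reads, was under the floor. The means were 47.0 ± 29.5 and 398 ± 94.2 (SD, n = 5), and the log2 fold change of -3.54 had a standard error of 0.72 and an adjusted p of 0.00191 (limma, adjusted over all genes tested). Without hypHSC 5 the log2 fold change was -2.78.

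*Flt3l* (chromosome 7, 44780613 to 44785856), the FLT3 ligand gene, had 60.6, 49.7, 58.2, 32.5 and 34.8 normalized counts in hypHSC 1 to 5 and 141, 115, 192, 147 and 155 in qHSC 1 to 5. The groups did not overlap, and both were compact, with the highest library 1.86 times the lowest in hypHSCs and 1.67 times in qHSCs. The log2 fold change was -1.68 with a standard error of 0.33 (adjusted p = 0.00156, limma). Of its exon bases, 21.4% are shared with the protein-coding gene *Gm45713* on the same strand, so the origin of reads there is uncertain.

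*Kitl* (chromosome 10, 99851683 to 99936275), which encodes stem cell factor, had 318, 282, 303, 478 and 283 normalized counts in hypHSC 1 to 5 and 444, 483, 172, 454 and 351 in qHSC 1 to 5. The range of the hypHSC libraries lay inside that of the qHSC libraries. The log2 fold change was -0.14, with a 95% interval from -0.82 to 0.55 (adjusted p = 0.744, limma). A change of up to 0.82 down or 0.55 up on the log2 scale therefore lay within the interval.

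Among the receptor genes, *Csf1r* (chromosome 18, 61238643 to 61265221) had 14052, 24497, 24120 and 5275 normalized counts in hypHSC 1 to 4 and 1833 in hypHSC 5. In qHSC 1 to 5 it had 2883, 163, 259, 3833 and 348. The groups overlapped, since hypHSC 5 was below qHSC 1 and qHSC 4, which stood far above the other qHSC libraries. The log2 fold change was 3.78 with a standard error of 1.01 (adjusted p = 0.00925, limma). With the 12-week hypHSCs alone it was 3.14 and did not pass (adjusted p = 0.0594), and it was 4.38 without hypHSC 5 and 4.40 without qHSC 4. In the gene model used here, 19.9% of its exon bases lie opposite exons of *Hmgxb3*. The counted entries of the pair overlap only from 61264351 to 61265221. Since the counting did not use strand, reads of the pair cannot be told apart where they overlap. *Csf1r* over *Hmgxb3*, a ratio of normalized counts, was 8.08 to 65.6 in hypHSCs and 0.323 to 10.3 in qHSCs, below 1 in qHSC 2 and 3. *Hmgxb3* had 315 ± 136 normalized counts in hypHSCs against 380 ± 71.9 in qHSCs (adjusted p = 0.356, limma).

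*Csf2ra* (chromosome 19, 61212395 to 61216856) had 585, 1146, 957, 1161 and 758 normalized counts in hypHSC 1 to 5 and 104, 121, 131, 158 and 183 in qHSC 1 to 5. Every hypHSC library was above every qHSC library, with little spread in either group. The means were 921 ± 250 and 139 ± 31.2 (SD, n = 5), and the log2 fold change was 2.70 with a standard error of 0.26 (adjusted p = 1.19e-05, limma).

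*Csf2rb* (chromosome 15, 78209998 to 78238047) had 547, 1526, 1762, 59.8 and 30.3 normalized counts in hypHSC 1 to 5 and 39.8, 6.82, 7.87, 45.4 and 3.75 in qHSC 1 to 5. The 3 high hypHSC libraries stood far above all qHSC libraries, while hypHSC 5 lay within the qHSC range. The log2 fold change was 4.42 with a standard error of 1.19 (adjusted p = 0.0101, limma), and with the 12-week hypHSCs alone it was 3.38 and did not pass (adjusted p = 0.0680). It was 3.79 without hypHSC 3, 5.01 without hypHSC 4, 5.25 without hypHSC 5 and 5.27 by DESeq2. Its paralogue *Csf2rb2* holds 9.97% of its 59-base stretches, the read length, and the split of reads between them is uncertain. *Csf2rb2* had 492, 1347, 1857, 186 and 157 normalized counts in hypHSC 1 to 5 and 26.3, 0, 3.15, 30.8 and 0 in qHSC 1 to 5, without overlap.

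*Kit* (chromosome 5, 75735647 to 75817379) had 128, 80.8, 51.6, 0 and 0 normalized counts in hypHSC 1 to 5 and 5.43, 0, 12.6, 16.3 and 8.24 in qHSC 1 to 5. In hypHSC 1, 2 and 3 it was above all qHSC libraries, and in hypHSC 4 and 5 no read was counted, which allows up to 3.15 and 4.54 normalized counts. The log2 fold change was 1.06 with a 95% interval from -2.30 to 4.43 (adjusted p = 0.593, limma). It was 2.60 by DESeq2 and 2.58 by edgeR, neither of them called, and 0.26 to 2.02 with 1 library left out, lowest without hypHSC 1. The share of reads on entries without a symbol was 29.1%, 20.1%, 13.2%, 10.8% and 12.4% in hypHSC 1 to 5 and 8.98% to 10.2% in qHSCs. Of 8 mast cell markers, 4 were at 0 in all hypHSC libraries and 7 in all qHSC libraries, and *Cpa3*, a mast cell protease gene, reached 73.4 in hypHSC 4, where *Kit* was at 0, and at most 1.35 elsewhere. *Hdc*, the histidine decarboxylase gene and the only mast cell marker tested, was higher in hypHSCs (log2 fold change 3.47, adjusted p = 0.00183, limma), with 554, 937, 251, 80.8 and 80.2 normalized counts in hypHSC 1 to 5 and 12.8 to 36.8 in qHSCs, and was highest in the 3 libraries where *Kit* was. The part of mast cells in the *Kit* values was not tested.

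*Flt3* (chromosome 5, 147267554 to 147337301) had 117, 92.1, 0.83, 3.15 and 0 normalized counts in hypHSC 1 to 5 and 8.15, 0, 19.7, 18.8 and 4.50 in qHSC 1 to 5. Only hypHSC 1 and 2 were above all qHSC libraries, and hypHSC 3, 4 and 5 were at or under the floor. The libraries hypHSC 1 and 2 came from 13 weeks of diet and mice aged 19 weeks. They also had the largest shares of reads on entries without a symbol (29.1% and 20.1%), and these traits cannot be told apart. The gene reached 10 normalized counts in 4 libraries, and 5 were required for the test. In the fit without that filter the log2 fold change was 0.40 with a standard error of 1.45 (adjusted p = 0.842, limma). Of 8 dendritic cell markers, 4 were called higher and *Zbtb46* lower, with a summed level of 1749 to 5041 normalized counts in hypHSCs against 449 to 1210 in qHSCs, and the part of these cells in the result was not tested.

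In all, 7 of the 8 genes were tested and 5 were called, meaning that the log2 fold change was 1 or more in either direction and the adjusted p did not exceed 0.05. Over all 14630 genes tested, 39.5% were called, 17.8% higher and 21.7% lower in hypHSCs, and the median log2 fold change was -0.20. The groups did not overlap for 3 of the 8 genes, against 39.5% of all genes tested. Scaling on the reference genes *Hprt*, *Pgk1* and *Actb* moved the median of all genes to -1.12 and that of equal totals to -0.54, and the called genes kept their direction and call under both.

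**Figure D2:**
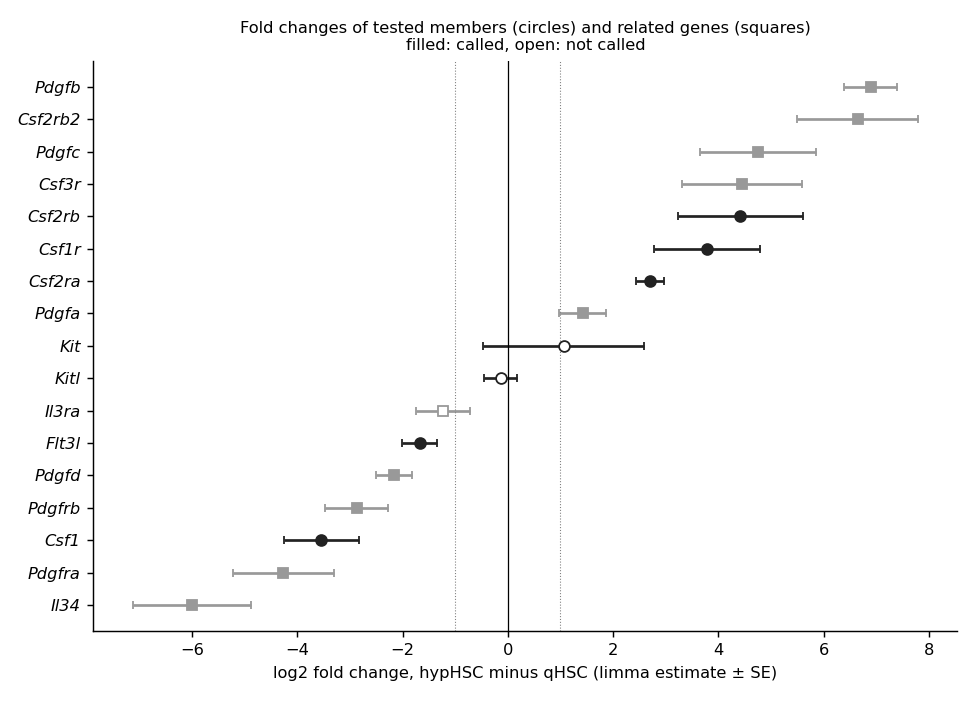
Log2 fold changes (hypHSC minus qHSC, limma estimate ± SE, n = 5 libraries per group) of the 7 tested genes of the axis, as circles, and 10 tested related cytokine and receptor genes, as squares, filled where called, with dotted lines at -1 and 1. *Csf1r*, *Csf2ra* and *Csf2rb* lie above 1 and *Csf1* and *Flt3l* below -1, and the interval of 1 SE around *Kit* crosses 0.

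Levels of different genes were compared per exon length, as FPKM. In hypHSCs the order of the means was *Csf1r* (48.0), *Csf2ra* (7.57), *Csf2rb* (2.79), *Kitl* (0.948), *Flt3l* (0.289), *Csf1* (0.197), *Flt3* (0.160) and *Kit* (0.138). The ranges of neighbours overlapped except between *Kitl*, at 0.707 to 1.28, and *Flt3l*, at 0.182 to 0.405. In qHSCs the order of the means was *Csf1r* (6.26), *Csf1* (2.07), *Csf2ra* (1.45), *Kitl* (1.38), *Flt3l* (1.15), *Csf2rb* (0.0879), *Flt3* (0.0491) and *Kit* (0.0277). There, the ranges of neighbours overlapped except between *Flt3l*, at 0.872 to 1.57, and *Csf2rb*, at 0.0145 to 0.192. *Csf1r* came first there through qHSC 1 and 4 (12.14 and 16.02). In qHSC 2, 3 and 5 it had 0.669, 1.15 and 1.33, below *Csf1* at 2.18, 2.70 and 2.32. That order rests on the exon length taken for *Csf1r*, whose gene model is longer than the counted entry.

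Ligands were then set against receptors within each library, which hardly depends on how libraries are scaled, as the log2 ratio of normalized counts, with 1 added to each, per base of exon. *Csf1r* over *Csf1* was 7.22, 8.02, 8.82, 6.62 and 8.51 in hypHSC 1 to 5 and 2.92, -1.70, -1.23, 3.38 and -0.80 in qHSC 1 to 5. The receptor exceeded the ligand in all 5 hypHSC libraries. By the exon lengths taken, the ligand exceeded the receptor in qHSC 2, 3 and 5. The length taken for *Csf1r* is from a gene model at 61229714 to 61266535, and the counted entry spans 61238643 to 61265221. Whether the ligand exceeded the receptor in qHSC 2, 3 and 5 is therefore uncertain. The groups did not overlap, and their means differed by 7.32. With *Csf1* at 2 reads, the value of hypHSC 5 rests in part on the added count. *Il34* fell as *Csf1* did, with 119, 110, 88.2, 38.8 and 0 normalized counts in hypHSC 1 to 5 and 2073, 2906, 2106, 1914 and 2149 in qHSC 1 to 5 (log2 fold change -6.01, standard error 1.12, adjusted p = 0.00110, limma). *Csf1r* over *Il34*, a ratio added after its values had been seen, was 5.93 to 7.13 in hypHSC 1 to 4 and -5.10 to 0.05 in qHSCs. In hypHSC 5, where *Il34* had no read, the added count sets the ratio.

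*Kit* over *Kitl* was -1.49, -1.97, -2.71, -9.08 and -8.33 in hypHSC 1 to 5 and -6.29, -9.10, -3.85, -4.90 and -5.43 in qHSC 1 to 5. The ligand exceeded the receptor in all 10 libraries, and the groups overlapped. In hypHSC 4 and 5 and in qHSC 2, where *Kit* had no read, the added count sets the ratio. *Flt3* over *Flt3l* was 0.23, 0.17, -5.72, -3.72 and -5.87 in hypHSC 1 to 5 and -4.66, -7.56, -3.93, -3.61 and -5.53 in qHSC 1 to 5. The ratio was above 0 in hypHSC 1 and 2 and in no other library, and hypHSC 5 and qHSC 2 had no read of *Flt3*. In hypHSC 1 and 2 it was near 0 and rests on the exon length taken for *Flt3l*. That length is from a gene model starting at 44779212, and the counted entry starts at 44780613. Whether receptor exceeded ligand there is therefore uncertain.

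**Figure D3:**
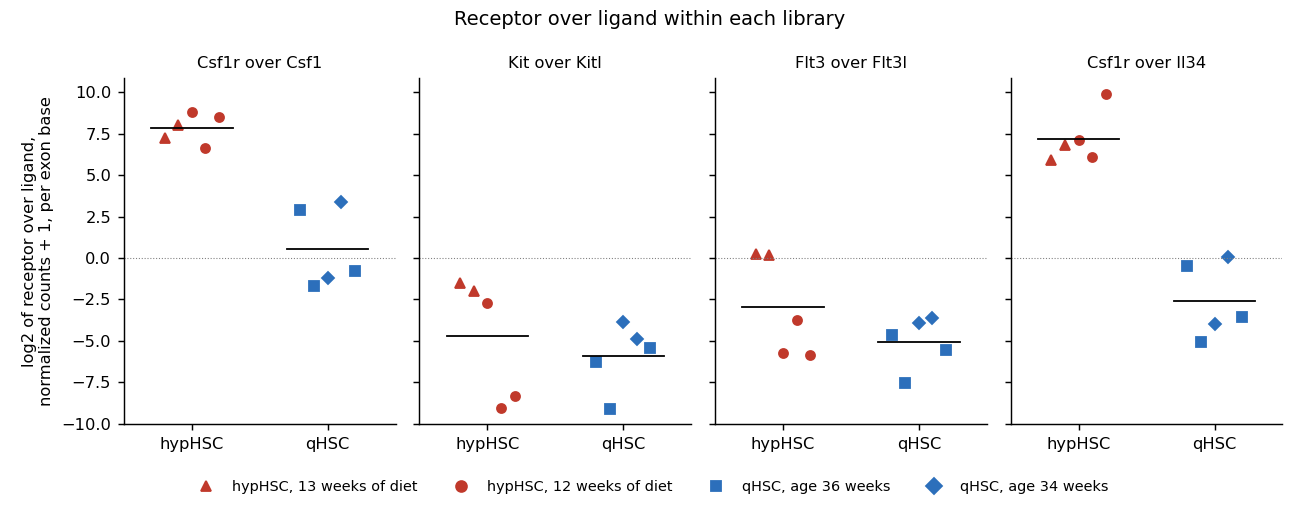
Log2 ratio of receptor over ligand within each library for 4 pairs (normalized counts with 1 added, per base of exon), with hypHSCs in red and qHSCs in blue and a line at the mean of the 5 libraries. The groups are apart for *Csf1r* over *Csf1* and over *Il34* and overlap for *Kit* over *Kitl* and *Flt3* over *Flt3l*.

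The receptor genes were also read beside the macrophage markers of the same library. Among qHSCs, the 14 markers summed to 55655 normalized counts in qHSC 1 and 128631 in qHSC 4, against 7138 to 12929 in the other 3, and *Csf1r* and *Csf2rb* were highest in the same pair of libraries. Among hypHSCs, *Csf1r* spanned 13.4-fold and *Csf2rb* 58.3-fold, both lowest in hypHSC 5, which also had the lowest marker sum. Most of that sum was *Lyz2*, at 740305 to 940344 normalized counts, and single markers spanned from 1.27-fold (*Lyz2*) to 23.2-fold (*C1qa*). *C1qa*, *Itgam* (8.71-fold), *C1qb* (7.48-fold) and *Adgre1* (7.28-fold) were lowest in hypHSC 5, as *Csf1r* was. So were *Lyz2*, *Cd14*, *Fcgr1*, *Laptm5* and *Tyrobp*. *Cd68*, *Mertk* and *Aif1* were lowest in other hypHSC libraries, and *Ptprc* and *C1qc* were highest in hypHSC 5. *Csf1r* over *Adgre1*, a ratio of normalized counts, was 1.002 to 3.43 in hypHSCs and 2.39 to 5.73 in qHSCs. *Csf1r* over *Cd68*, another marker of the list, was 0.0102 to 0.181 in hypHSCs and 0.355 to 0.889 in qHSCs, without overlap. The ratio therefore depended on the marker chosen. *Csf2ra* spanned 1.99-fold in hypHSCs and 1.76-fold in qHSCs and was not highest in qHSC 1 or 4. Without qHSC 1 and 4, chosen for their marker sums after the data had been seen, the log2 fold change was 5.28 for *Csf1r* and 5.48 for *Csf2rb*, and 5 genes of the axis were called. Since *Csf1r* and *Csf2rb* were also highest in that pair, their larger values follow from the choice. The part of macrophages in these results was not tested.

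**Figure D4:**
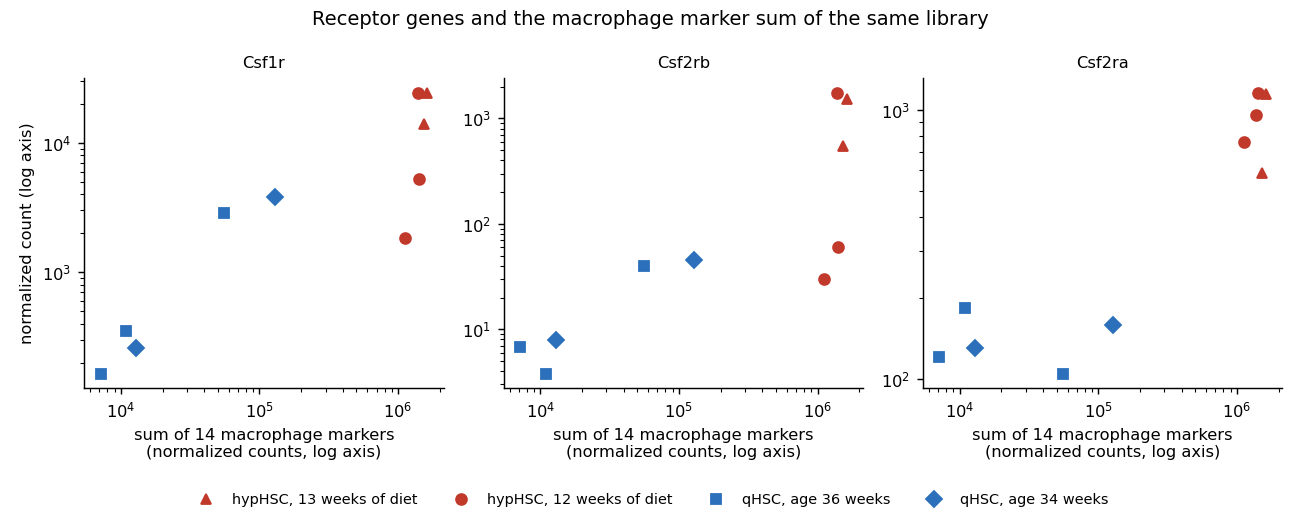
Normalized counts of *Csf1r*, *Csf2rb* and *Csf2ra* in each library against the sum of 14 macrophage markers in the same library, both on log axes. The hypHSCs lie close together on the marker sum, which is mostly *Lyz2*, and apart on *Csf1r* and *Csf2rb*, and qHSC 1 and qHSC 4 hold the highest sums and the highest *Csf1r* among the qHSCs.

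Over all genes tested, 17.8% were called higher and 21.7% lower. Related cytokine and receptor genes moved in both directions, with 5 of 10 tested called higher and 4 lower. The higher genes were *Csf2rb2*, *Csf3r* (the G-CSF receptor, log2 fold change 4.45) and the platelet-derived growth factor genes *Pdgfa* (1.42), *Pdgfb* (6.90) and *Pdgfc* (4.76). The lower genes were *Il34*, *Pdgfd* (-2.16) and the receptor genes *Pdgfra* (-4.27) and *Pdgfrb* (-2.87), which stellate cells are known for. *Il3ra*, the binding subunit of the IL3 receptor, averaged 197 normalized counts in hypHSCs against 382 in qHSCs. Every hypHSC library (34.8 to 302) was below every qHSC library (337 to 450), but it was not called (log2 fold change -1.23, adjusted p = 0.0665, limma). *Csf2*, *Csf3* and *Il3*, which encode ligands of these receptors, had no read in any of the 10 libraries, where 3 reads was the limit of detection, and *Il5* and *Il5ra* were not tested.

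Among 52 tested receptor-proximal signalling genes, 21 were called higher and 6 lower (median log2 fold change 0.69), against 17.8% and 21.7% of all genes. The largest changes were rises of *Pik3cg*, a phosphoinositide 3-kinase subunit of leukocytes (5.92), *Tyrobp*, a membrane adaptor that the macrophage list also holds (5.30), and *Plcg2*, a phospholipase of leukocytes (5.20). Of 5 tested genes of ligand shedding, *Adam10* (1.60), *Adam17* (1.42) and *Rhbdf2* (1.23) were called higher and *Rhbdf1* (-3.45) lower. ADAM17 is a protease that releases membrane-bound cytokines, and the RHBDF proteins are its partners. The 3 rises were lost when libraries were scaled on the 3 reference genes.

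Of 11 tested transcription factor genes, 8 were called higher and 1 lower (median 3.45), against 17.8% and 21.7% of all genes tested. *Spi1*, which encodes PU.1, a regulator of myeloid genes, lay at 730 to 1518 normalized counts in hypHSCs against 6.82 to 153 in qHSCs (log2 fold change 5.38). *Ets1* was the lower gene (log2 fold change -5.66).

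The 250 bases before the transcription start are shown for the 3 called genes that have an entry in the RefSeq promoter table (GRCm38.p6). *Spi1* and *Csf2ra* were called higher, and *Csf1* and *Flt3l* were called lower. Binding of PU.1 to these windows was not tested. Entries were found for 6 of the 8 genes, and *Csf1r* and *Csf2rb* had none. Capitals mark GAGGAA, a core motif of PU.1, searched on both strands, and all 3 windows are on the minus strand, at chr19:61228419-61228668 for *Csf2ra*, chr3:107760470-107760719 for *Csf1* and chr7:45136433-45136682 for *Flt3l*.
Csf2ra: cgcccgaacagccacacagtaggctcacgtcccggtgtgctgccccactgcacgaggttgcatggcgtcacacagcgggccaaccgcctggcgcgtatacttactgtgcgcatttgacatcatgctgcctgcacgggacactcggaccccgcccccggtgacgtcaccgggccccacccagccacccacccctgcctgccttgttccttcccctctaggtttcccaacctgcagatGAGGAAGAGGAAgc
Csf1: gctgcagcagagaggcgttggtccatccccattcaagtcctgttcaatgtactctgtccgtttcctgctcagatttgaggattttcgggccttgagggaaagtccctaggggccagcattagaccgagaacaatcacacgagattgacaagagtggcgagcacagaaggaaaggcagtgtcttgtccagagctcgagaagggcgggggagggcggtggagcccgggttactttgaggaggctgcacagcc
Flt3l: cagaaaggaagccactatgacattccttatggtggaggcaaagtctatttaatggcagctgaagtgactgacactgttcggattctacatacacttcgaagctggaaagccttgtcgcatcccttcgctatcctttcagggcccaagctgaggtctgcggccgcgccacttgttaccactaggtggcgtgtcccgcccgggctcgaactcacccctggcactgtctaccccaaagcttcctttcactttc
*Csf2ra* holds 2 copies, starting 14 and 8 bases before the transcription start, and *Csf1* and *Flt3l* hold none in this window. Of the 3 genes with an entry that were not called, *Kit* holds 1 copy and *Kitl* and *Flt3* hold none. Of 32851 such windows in the table, 23.3% hold the motif on either strand.

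The genes with the profile most like each tested gene over the 10 libraries were found by the root mean square difference of centred log2 values. For *Csf1r* they were *Entpd1* (0.44), *C1qa* (0.49) and *Slc7a8* (0.52), and for *Csf1* they were *Serpinh1* (0.25), *Mcc* (0.33) and *Gm5622* (0.35). *Csf2ra* was nearest to *Fth1* (0.19), *Kitl* to *Cd38* (0.20) and *Flt3l* to *Utrn* (0.18). The nearest gene was farther away for *Csf2rb* (*Pde1b*, 0.90) and *Kit* (*Sytl1*, 0.94).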

How the data were processed

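RNA of 20000 sorted cells per preparation was reverse transcribed from oligo-dT with template switching and sequenced without strand. The deposited signal of a gene is its normalized count: the authors mapped reads to mm39 with STAR, counted them with featureCounts and divided each library by its DESeq2 size factor. Multiplying back gave whole reads for 100% of values (tolerance 0.1), which were used for depth, FPKM (GENCODE exon lengths, GRCm39), DESeq2 (1.42.0) and edgeR (4.0.16). No per-sample column was left unused.

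Entries with a symbol that reached 10 normalized counts in 5 or more of the 10 libraries were compared as log2(normalized count + 1) with limma (3.58.1, intensity trend, R 4.3.3) and Benjamini-Hochberg adjustment. The authors tested counts with DESeq2, which is an alternative here. Fold changes are differences of mean log2 values on this scale, not ratios of means, and the added 1 moves those of low genes. The text names the 8 genes, related cytokines and receptors, up to 3 called genes per other list by largest change at a mean of at least 100 normalized counts, the members of counts of 5 or fewer, and the 3 nearest profiles. A gene that this rule would name is not reported here. *Cpa3*, *Hdc*, *Hmgxb3* and single macrophage, cholangiocyte and myofibroblast markers were named after their values were seen. The members and lists were chosen with earlier results of these data known. The fit was tested on simulated data. Floors cover counting error only, and 95% intervals are those of limma over libraries.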

Additional observations from a re-analysis of the deposited data

Results flagged for a closer look

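Among 22 groups of 5 libraries tested for a library far from the others, 2 were flagged, and chance flags about 1 in 20 groups. *Csf1* in hypHSC 5 stood below the other hypHSCs, with a gap to the nearest of 0.805 of the group's range (log2 value 2.01, from 2 reads). *Kitl* in hypHSC 4 stood above the other hypHSCs, with a gap of 0.771 of the range (log2 value 8.90).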

How the results depend on the processing

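The direction and call of *Csf1*, *Flt3l* and *Csf2ra* were the same in every alternative run for them (25, 24 and 25). With the 12-week hypHSCs only, *Csf1r* (3.14) and *Csf2rb* (3.38) were no longer called, 3 genes of the axis were called, *Kit* turned to -0.85, and the ratio differences of *Kit* over *Kitl* and *Flt3* over *Flt3l* turned to -0.79 and -0.044. *Kitl* passed the test when libraries were scaled on 3 reference genes (-1.07, adjusted p = 0.0215, limma, against 0.0215 to 0.977 over all its alternatives) and turned to 0.081, not called, without qHSC 1 and 4. The unfiltered difference of *Flt3* turned to -1.89 at 12 weeks only, and to -0.50, -0.41 and -0.31 without hypHSC 1, hypHSC 2 or qHSC 2, with 1.22 the highest value when 1 library was left out. Leaving out each library in turn kept the direction and call of the 7 tested genes of the axis, while the lists gave 4 to 5 related genes higher and 4 to 5 lower, 5 to 8 receptor-proximal genes lower and 8 to 9 transcription factor genes higher, and the *Csf1r* over *Csf1* difference stayed within 6.77 to 8.04. Including entries without a symbol gave 9291 called genes against 5779. Of the called genes, 45.0% were higher, against 32.4% with equal totals and 17.4% with 3 reference genes. Called lower in receptor-proximal signalling were 6 genes, against 19 with 3 reference genes and 10 with equal totals or 12 weeks only. The largest moves of *Csf1*, *Flt3l* and *Csf2ra* were to -4.48, -2.60 and 1.76 with 3 reference genes. The causes were not tested beyond the construction of each alternative. Same-numbered libraries deviated together with correlations of 0.00816 to 0.129, so the numbers were not taken to pair the samples. With the replicate block, 5786 genes and 5 genes of the axis were called. An alternative without the hypHSC libraries lowest in *Csf1r* and *Csf2rb* was dropped, because it chose libraries by the outcome.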
